A study of Mus musculus with 80 samples.

Results

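The mitosis, spindle and cytokinesis genes described here are 49 genes that act between chromosome condensation and the final separation of daughter cells. They were chosen by name from a list of known mitotic genes, and all 49 were found among the 22103 gene rows of a liver RNA-seq table. The livers came from 20 female Balb-C mice aged 10 to 12 weeks, for which the labels name no genetic change. PFESA-BP2, a perfluoroether sulfonic acid known as a byproduct of Nafion manufacture, was given by gavage once a day for 7 days. There were 5 groups of 4 mice, with control at 0, low doses of 0.03 or 0.3 mg/kg-day, and higher doses of 3.0 or 6.0 mg/kg-day. The control titles name DMSO and the treatment text names deionized water, so the vehicle given to the controls is unsettled. Each mouse gave 1 library, which was run over 4 lanes and has 1 deposited column of expected counts per gene. Mice are called here by their library numbers, 1 to 4 for control, 9 to 12 for 0.03, 13 to 16 for 0.3, 17 to 20 for 3.0 and 21 to 24 for 6.0 mg/kg-day.

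A dividing cell first condenses its chromosomes and attaches them through kinetochores, protein assemblies built on the centromere, to the microtubules of the spindle. The spindle checkpoint holds the cell until every kinetochore is attached, after which the anaphase-promoting complex lets the sister chromatids part. Microtubules then reorganize into a central spindle that places the contractile ring for cytokinesis. Hepatocytes of an adult liver divide rarely, and they often finish mitosis without cytokinesis, which gives cells with more than one nucleus or more than one genome copy. Transcripts of most mitotic genes are made in late cell cycle stages, so their level in a tissue depends on both the number of cycling cells and the RNA in each. In RNA from whole liver these possibilities, more cells of a kind or more RNA per cell, cannot be told apart.

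Total expected counts per library ranged from 13086779 to 21467012, and levels are given as CPM, reads divided by library size as edgeR's cpm function does, after scaling with trimmed-mean (TMM) factors. A gene was called higher or lower at a Benjamini-Hochberg adjusted p under 0.05, from edgeR's quasi-likelihood test over 15197 genes in 1 fit of all 20 mice. Most members were scarce in untreated liver, where 31 of the 49 had a control mean under 20 reads. All 49 passed the filter on low counts, but 16 of them did so only because of the groups above 0.03 mg/kg-day. The other 33 would have passed on the control and 0.03 mg/kg-day mice alone. Libraries 3, 11, 15, 19 and 23, 1 in each dose group, stood apart from the other 15 along the leading component of spread within groups. Library 22 of the 6.0 mg/kg-day group stood apart in another way, with the highest level in its group for 39 of the 49 members and a high sum of T and NK cell markers. Hepatocyte markers summed to 82100 to 113300 CPM at 6.0 mg/kg-day, against 131700 to 176200 CPM in controls. Most of this sum was Alb, with 138200 of 176000 CPM in library 1 and 61700 of 82100 CPM in library 24. Of the 10 markers 6 were called lower and 0 higher at 6.0 mg/kg-day, where 11.2% of all genes were called lower and 11.2% higher. No marker of the 9 cell type lists was at 0 in every library, and the part of cell make-up in the results below was not tested.

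Transcripts of these genes were raised together at the 2 highest doses. At 6.0 mg/kg-day 48 of the 49 were called higher than in controls and 0 lower, where 11.2% of all genes tested were called higher and 11.2% lower. At 3.0 mg/kg-day 43 were called higher and 0 lower, where 3.18% of all genes were called higher and 1.43% lower. The median log2 change of the members was 3.20 at 6.0 mg/kg-day, against −0.02 over all genes tested, and 2.15 at 3.0 mg/kg-day, again against −0.02. The summed level of the 49 members averaged 82.1 ± 6.70 CPM in controls, 78.4 ± 11.1 CPM at 0.03, 89.2 ± 5.24 CPM at 0.3, 257 ± 52.6 CPM at 3.0 and 476 ± 153 CPM at 6.0 mg/kg-day (SD, n = 4 each). Without library 22 the 3 remaining mice of the 6.0 mg/kg-day group averaged 399 ± 20.8 CPM, 4.87 times the control mean. Of the members, 33 would have passed the filter on the control and 0.03 mg/kg-day mice alone. Among these, 32 were called higher at 6.0 mg/kg-day, with a median log2 change of 2.98. At 3.0 mg/kg-day 28 of them were called higher, with a median of 1.91. The plot of all members by mouse shows where the rise began and which mice carried it.

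**Figure D1:**
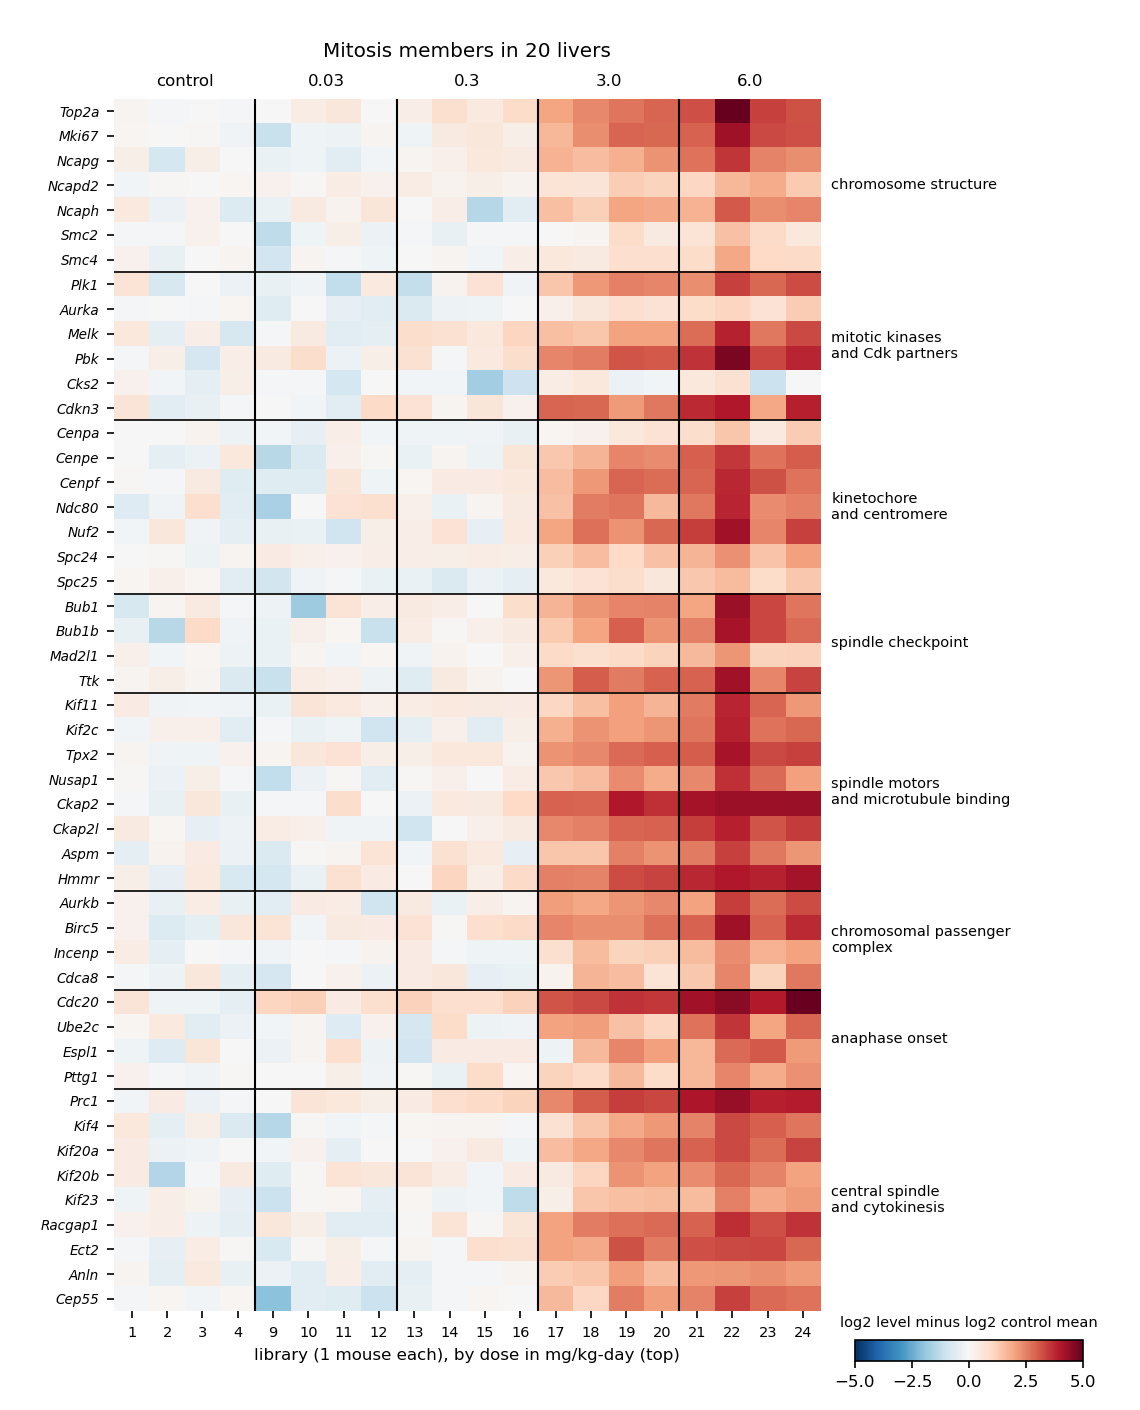
Level of each of the 49 members in each mouse, as log2(CPM + 0.1) minus the log2 of the control mean with the same 0.1 CPM added. Columns are single mice by library number, ordered by dose from control to 6.0 mg/kg-day, and rows are members grouped by role. The columns of the 2 highest doses are red for nearly every member, library 22 is the darkest column for many of them, and Cks2 is the pale row.

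Every member lay above controls in all 4 mice of the 6.0 mg/kg-day group except Cks2, so 48 of 49 groups did not overlap, where this held for 9.68% of all genes tested. At 3.0 mg/kg-day all 4 mice lay above all 4 controls for 43 members, where this held for 5.55% of all genes. Of the 15197 genes ranked by log2 change, 42 members stood among the highest 500 at 6.0 mg/kg-day and 43 at 3.0 mg/kg-day. The members not called at 3.0 mg/kg-day were Smc2, Smc4, Aurka, Cks2, Cenpa and Cdca8. The plot of changes by role shows these as open points, and shows the wide span among members of the same role.

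**Figure D2:**
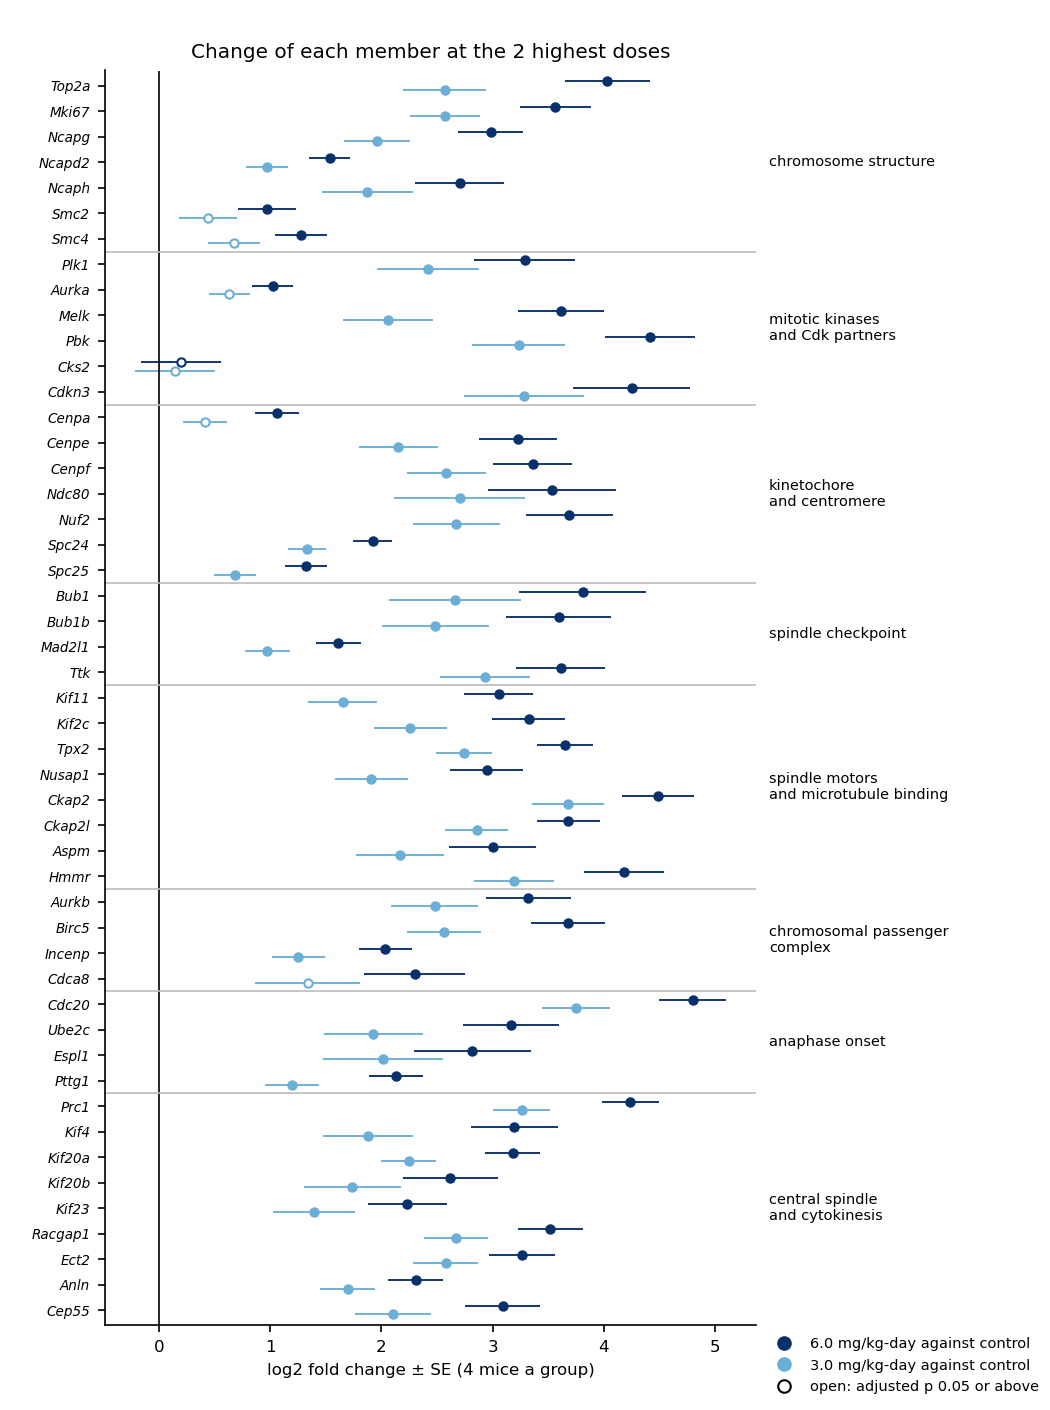
Log2 fold change against control with its standard error for each member at 6.0 mg/kg-day (dark) and 3.0 mg/kg-day (light), grouped by role. Filled points have an adjusted p under 0.05. At 6.0 mg/kg-day changes run between 0.20 for Cks2, the only open dark point, and 4.80 for Cdc20.

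Chromosome structure genes had 7 members, all called higher at 6.0 mg/kg-day and 5 at 3.0 mg/kg-day, with median log2 changes of 2.71 and 1.87. Top2a, the topoisomerase that untangles sister DNA molecules, had 3.31, 2.81, 2.98 and 2.74 CPM in controls, 11.8, 16.1, 19.4 and 23.2 CPM at 3.0 and 28.3, 106, 32.8 and 27.4 CPM at 6.0 mg/kg-day. The dose groups did not overlap, and library 22 lay far above the other 3 mice of its group. Its log2 change was 4.03 ± 0.38 (SE) at 6.0 mg/kg-day (edgeR adjusted p = 2.24e-07) and 2.57 ± 0.37 at 3.0 mg/kg-day (adjusted p = 0.000155). Smc4, an ATPase of the condensin ring that compacts chromosomes, had 11.5, 7.53, 9.76 and 10.8 CPM in controls, 14.1, 13.6, 18.0 and 17.7 CPM at 3.0 and 19.0, 38.2, 19.9 and 19.1 CPM at 6.0 mg/kg-day. Its mean CPM in controls was the highest of the members, without scaling by transcript length. Smc4 changed far less than Top2a, by 1.28 ± 0.23 at 6.0 mg/kg-day (edgeR adjusted p = 0.000442) and 0.68 ± 0.23 at 3.0 mg/kg-day (adjusted p = 0.127, not called). Smc2, its partner ATPase, changed by 0.97 ± 0.26 at 6.0 mg/kg-day (adjusted p = 0.00992), and was no longer called when library 22 was left out (adjusted p = 0.0560). The condensin I subunits that sit on this pair differed from it and from each other, with log2 changes of 2.98 for Ncapg, 2.71 for Ncaph and 1.54 for Ncapd2 at 6.0 mg/kg-day. Mki67, which coats mitotic chromosomes and is the standard marker of cycling cells, averaged 29.0 ± 12.7 CPM at 6.0 mg/kg-day and 2.45 ± 0.195 CPM in controls (SD, n = 4 each), a log2 change of 3.56 ± 0.32 (adjusted p = 1.18e-07).

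The mitotic kinases and Cdk partners held both some of the largest changes and the member that was not called at any dose. Of 6 members, 5 were called higher at 6.0 mg/kg-day and 4 at 3.0 mg/kg-day. Cks2, a small subunit that binds Cdk1 and tunes its choice of substrates, had 4.49, 3.54, 2.83 and 4.74 CPM in controls, 5.07, 5.63, 3.12 and 3.53 CPM at 3.0 and 5.60, 6.65, 1.79 and 3.91 CPM at 6.0 mg/kg-day. These groups overlapped throughout, and library 23, 1 of the 5 libraries that stood apart, was the lowest at 6.0 mg/kg-day. The log2 change was 0.20 ± 0.36 at 6.0 (adjusted p = 0.741) and 0.14 ± 0.36 at 3.0 mg/kg-day (adjusted p = 0.922). Near-identical sequences complicate this gene, since the annotated copy Gm15452 averaged 50.5 reads at 6.0 mg/kg-day and 43.8 in controls, beside 81.0 and 68.8 reads given to Cks2, and how the counting split reads among copies is not given. Aurka, the kinase of centrosomes and spindle poles, had 2.67, 2.87, 2.68 and 3.03 CPM in controls, 3.40, 4.21, 5.10 and 4.76 CPM at 3.0 and 5.41, 5.95, 4.72 and 6.83 CPM at 6.0 mg/kg-day. Neither dose overlapped with controls, and the log2 change was 1.03 ± 0.18 at 6.0 (adjusted p = 0.000376) and 0.63 ± 0.19 at 3.0 mg/kg-day (adjusted p = 0.0574, not called). Plk1, the kinase that drives mitotic entry and cytokinesis, changed by 3.29 ± 0.45 at 6.0 mg/kg-day. Melk and Pbk, kinases found mainly in dividing cells, changed by 3.61 and 4.42. Cdkn3, a phosphatase that acts on Cdks, had 1 to 5 reads per control mouse and 13 to 69 at 6.0 mg/kg-day, a log2 change of 4.25 ± 0.52 (adjusted p = 5.71e-06).

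All 7 kinetochore and centromere members were called higher at 6.0 mg/kg-day, and 6 of them at 3.0 mg/kg-day. Ndc80, Nuf2, Spc24 and Spc25 together form the rod-shaped Ndc80 complex, which links the centromere to microtubules. Spc25 had 7.70, 8.77, 7.75 and 4.91 CPM in controls, 10.5, 12.1, 13.5 and 10.7 CPM at 3.0 and 18.5, 21.9, 13.9 and 18.5 CPM at 6.0 mg/kg-day. Spc24, its partner at the centromere end, had 3.60, 3.71, 2.98 and 3.88 CPM in controls, 8.25, 10.6, 7.13 and 9.91 CPM at 3.0 and 11.8, 17.7, 9.56 and 14.9 CPM at 6.0 mg/kg-day. Both were above controls in every mouse of the 2 dose groups, with log2 changes of 1.32 ± 0.19 (adjusted p = 3.57e-05) and 1.92 ± 0.17 (adjusted p = 1.18e-07) at 6.0 mg/kg-day. Spc25 changed by 0.68 ± 0.19 at 3.0 mg/kg-day, and its call there (adjusted p = 0.0412) was lost in 9 of 15 alternative settings. The microtubule-binding pair rose more, by 3.69 ± 0.39 for Nuf2 and 3.53 ± 0.57 for Ndc80, which had 2 to 6 reads per control mouse. Scaled by transcript length, the complex was uneven in both groups. In CPM per kilobase, Ndc80 averaged 1.04, Nuf2 3.29, Spc24 9.87 and Spc25 15.2 at 6.0 mg/kg-day, against 0.0941, 0.252, 2.59 and 6.10 in controls. The transcript isoform in use is not known, so these per-length levels rest on the annotated lengths of 1194 to 2405 bases. Cenpe, the kinetochore kinesin, and Cenpf, a large kinetochore and nuclear protein, changed by 3.23 and 3.36 on the log2 scale. Cenpa, the histone variant that marks centromeres, averaged 10.5 ± 2.75 CPM at 6.0 mg/kg-day and 5.03 ± 0.647 CPM in controls (SD, n = 4 each), a log2 change of 1.06 ± 0.20.

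The 4 spindle checkpoint members were called higher at both 6.0 and 3.0 mg/kg-day. Mad2l1, the Mad2 protein that holds back Cdc20, had 8.69, 6.58, 7.75 and 6.11 CPM in controls, 14.4, 12.9, 14.4 and 15.7 CPM at 3.0 and 22.7, 34.3, 15.7 and 16.5 CPM at 6.0 mg/kg-day. It was again a gene with a high control level and a modest log2 change, 1.61 ± 0.20 at 6.0 mg/kg-day (adjusted p = 7.96e-06). Ttk, the Mps1 kinase that starts checkpoint signalling, had 0.592, 0.675, 0.596 and 0.285 CPM in controls, 2.86, 5.15, 3.75 and 4.81 CPM at 3.0 and 4.85, 11.7, 3.40 and 6.56 CPM at 6.0 mg/kg-day. Mice at 6.0 and 3.0 mg/kg-day overlapped with each other but lay above every control, with a log2 change of 3.61 ± 0.40 at 6.0 (adjusted p = 1.52e-06) and 2.93 ± 0.40 at 3.0 mg/kg-day (adjusted p = 8.65e-05). Bub1 and Bub1b, checkpoint kinase and pseudokinase at the kinetochore, changed by 3.81 ± 0.57 and 3.59 ± 0.48 at 6.0 mg/kg-day. Bub1 had 2 to 5 reads per control mouse and 20 to 134 at 6.0 mg/kg-day.

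Spindle motors and microtubule-binding proteins had all 8 genes called higher at both doses, with log2 changes between 2.95 and 4.49 at 6.0 and between 1.65 and 3.68 at 3.0 mg/kg-day. Kif11, the motor that pushes spindle poles apart, had 2.42, 1.57, 1.64 and 1.60 CPM in controls, 3.77, 5.33, 7.70 and 6.10 CPM at 3.0 and 11.3, 26.4, 14.3 and 8.54 CPM at 6.0 mg/kg-day. No 2 of these groups overlapped, and the log2 change at 6.0 mg/kg-day was 3.05 ± 0.31 (adjusted p = 6.02e-07). Ckap2, a microtubule stabilizer, had 0.592, 0.450, 0.969 and 0.457 CPM in controls, 5.39, 5.33, 11.3 and 8.96 CPM at 3.0 and 12.7, 13.9, 13.7 and 14.3 CPM at 6.0 mg/kg-day. The 4 mice at 6.0 mg/kg-day were close together for this gene, library 22 included, and the log2 change was 4.49 ± 0.33 (adjusted p = 8.41e-09). Hmmr, which helps assemble spindle poles, averaged 9.90 ± 1.18 CPM at 6.0 mg/kg-day and 0.547 ± 0.250 CPM in controls (SD, n = 4 each), a log2 change of 4.18 ± 0.36. Tpx2, the activator of Aurora A on the spindle, changed by 3.65 ± 0.25, Ckap2l by 3.68, the microtubule-depolymerizing kinesin Kif2c by 3.32, the pole protein Aspm by 3.00 and the microtubule bundler Nusap1 by 2.95.

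The chromosomal passenger complex corrects faulty attachments and later moves to the central spindle. Its 4 genes were called higher at 6.0 mg/kg-day and 3 of them at 3.0 mg/kg-day. Birc5, the survivin subunit, had 1.14, 0.562, 0.671 and 1.48 CPM in controls, 5.61, 5.21, 5.26 and 7.11 CPM at 3.0 and 8.02, 20.2, 8.18 and 13.9 CPM at 6.0 mg/kg-day. Incenp, the scaffold of the complex, had 1.63, 0.900, 1.27 and 1.20 CPM in controls, 2.26, 3.97, 2.81 and 2.97 CPM at 3.0 and 3.98, 6.91, 4.44 and 5.29 CPM at 6.0 mg/kg-day. Neither gene overlapped between any pair of these groups, and their log2 changes at 6.0 mg/kg-day were 3.68 ± 0.33 (adjusted p = 1.21e-07) and 2.04 ± 0.24 (adjusted p = 2.71e-06). Aurkb, the kinase of the complex, changed by 3.32 ± 0.38 at 6.0 mg/kg-day. Cdca8, the borealin subunit, changed by 2.30 ± 0.45 at 6.0 mg/kg-day (adjusted p = 0.000907), while at 3.0 mg/kg-day its mice overlapped with controls (log2 change 1.34 ± 0.47, adjusted p = 0.136).

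The genes of anaphase onset included the member with the largest change. Cdc20, which activates the anaphase-promoting complex, had 0.494, 0.225, 0.224 and 0.171 CPM in controls, 3.29, 3.61, 4.53 and 4.31 CPM at 3.0 and 6.90, 8.42, 5.82 and 11.6 CPM at 6.0 mg/kg-day. In reads this was 3 to 10 per control mouse and 101 to 210 per mouse at 6.0 mg/kg-day. Controls and both dose groups did not overlap with each other, and the log2 change was 4.80 ± 0.30 at 6.0 (adjusted p = 1.45e-09) and 3.75 ± 0.31 at 3.0 mg/kg-day (adjusted p = 2.08e-07). Pttg1, the securin that keeps separase inactive, had 3.90, 3.15, 2.98 and 3.54 CPM in controls, 7.44, 6.75, 10.6 and 6.44 CPM at 3.0 and 10.9, 19.1, 12.6 and 17.0 CPM at 6.0 mg/kg-day. Every mouse of both doses lay above the controls, with a log2 change of 2.13 ± 0.24 at 6.0 (adjusted p = 2.25e-06) and 1.20 ± 0.24 at 3.0 mg/kg-day (adjusted p = 0.00414). Espl1, the separase that cuts cohesin, changed by 2.82 ± 0.53 at 6.0 mg/kg-day, and library 17 at 3.0 mg/kg-day was within the control range. Its call at 3.0 mg/kg-day (log2 change 2.02 ± 0.54, adjusted p = 0.0324) was lost in 9 of 15 alternative settings. Ube2c, the ubiquitin-conjugating enzyme of the same complex as Cdc20, changed by 3.16 ± 0.43 at 6.0 mg/kg-day.

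All 9 central spindle and cytokinesis members were called higher at both doses. Ect2, the exchange factor that switches on RhoA at the division plane, had 1.97, 1.57, 2.76 and 2.23 CPM in controls, 9.01, 8.29, 20.0 and 13.3 CPM at 3.0 and 20.9, 21.9, 22.7 and 16.1 CPM at 6.0 mg/kg-day. The 2 dose groups lay above all controls and overlapped with each other through library 19, and the log2 change was 3.27 ± 0.30 at 6.0 (adjusted p = 1.37e-07) and 2.58 ± 0.29 at 3.0 mg/kg-day (adjusted p = 1.00e-05). Kif20a, a kinesin that carries passenger proteins to the central spindle, had 2.52, 1.52, 1.64 and 1.88 CPM in controls, 5.77, 7.46, 10.5 and 12.5 CPM at 3.0 and 15.4, 19.4, 13.8 and 20.8 CPM at 6.0 mg/kg-day. All 3 groups were separate, and the log2 change was 3.18 ± 0.25 at 6.0 (adjusted p = 2.25e-08) and 2.25 ± 0.25 at 3.0 mg/kg-day (adjusted p = 6.05e-06). Prc1, the bundler that builds the central spindle, changed most, by 4.24 ± 0.26 at 6.0 mg/kg-day (adjusted p = 1.11e-09), with 12.7 ± 1.96 CPM there and 0.660 ± 0.166 CPM in controls (SD, n = 4 each). Kif4, its motor partner, changed by 3.20 on the log2 scale, and Racgap1 and Kif23, the components of centralspindlin, by 3.52 and 2.23. Anln, the anillin that links the ring to the membrane, changed by 2.31 ± 0.25, Cep55, which recruits the abscission machinery, by 3.09 ± 0.34, and Kif20b by 2.62 ± 0.43. At 3.0 mg/kg-day the calls of Kif23 (log2 change 1.39 ± 0.36, adjusted p = 0.0288) and Kif20b (log2 change 1.74 ± 0.44, adjusted p = 0.0210) were lost in 9 and 7 of 15 alternative settings.

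The low doses gave no call. At 0.03 mg/kg-day 0 of the 49 members passed, and 0% of all genes tested did. By an unadjusted p under 0.05 there were 2 members, where 3.72% of all genes passed that mark, and DESeq2 and limma-voom called 0 as well. These members were Cdc20, with a log2 change of 1.06 ± 0.36, and Cep55, with -1.15 ± 0.43, each with an edgeR adjusted p of 1. At 0.3 mg/kg-day 0 of 49 passed, where 0.290% of all genes did, and DESeq2 and limma-voom also called 0. There 4 members had an unadjusted p under 0.05, where 8.56% of all genes did, namely Cdc20 (1.18 ± 0.35), Prc1 (0.93 ± 0.28), Melk (1.00 ± 0.43) and Spc25 (-0.45 ± 0.19). Their adjusted p values by edgeR ranged between 0.209 and 0.507. Cdc20 had 0.706, 0.776, 0.402 and 0.550 CPM at 0.03 and 0.746, 0.577, 0.578 and 0.737 CPM at 0.3 mg/kg-day, where library 1 was the highest of the controls at 0.494 CPM. All 4 mice at 0.3 mg/kg-day lay above the controls, and so did 3 of the 4 at 0.03 mg/kg-day. Prc1 had 0.906, 1.25, 1.40 and 1.53 CPM at 0.3 mg/kg-day, against 0.592, 0.900, 0.522 and 0.628 CPM in controls, again with no overlap. Of all members, 5 lay wholly above controls at 0.3 mg/kg-day (Top2a, Ncapd2, Spc24, Cdc20 and Prc1), where 3.71% of all genes did. The median log2 change of the 49 was 0.26 at 0.3 mg/kg-day and −0.05 at 0.03 mg/kg-day, against −0.02 and −0.01 over all genes, and 37 members had a positive value at 0.3 mg/kg-day. These genes were named after their values were seen, and the comparisons of all doses share the same 4 controls.

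The step between the 2 highest doses was tested by itself. For 6.0 against 3.0 mg/kg-day 12 of 49 members were called higher and 0 lower, where 1.03% of all genes were called higher and 1.06% lower. They were Top2a, Ncapg, Melk, Kif11, Kif2c, Tpx2, Birc5, Cdc20, Pttg1, Prc1, Kif4 and Kif20a. All 49 log2 changes were positive, with a median of 0.88 against 0.00 over all genes, and 46 had an unadjusted p under 0.05, where 15.2% of all genes did. Melk had the largest, 1.55 ± 0.32 (edgeR adjusted p = 0.0130), with 2.49, 5.34, 2.25 and 3.64 CPM at 6.0 and 0.971, 0.889, 1.41 and 1.40 CPM at 3.0 mg/kg-day. For 24 members every mouse at 6.0 lay above every mouse at 3.0 mg/kg-day, where this held for 3.26% of all genes. The count of calls depended on single mice. It was 0 without library 22, 0 without library 17, 1 without library 18, 7 without library 24 and 25 without library 23. Without all of libraries 3, 11, 15, 19 and 23 it was 33, and in a fit of these 2 groups alone it was 0.

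The 19 kinetochore, checkpoint and spindle members were set against the 9 central spindle and cytokinesis members. By the median log2 change the kinetochore, checkpoint and spindle set stood slightly higher, at 3.36 against 3.18 for cytokinesis at 6.0 mg/kg-day and at 2.48 against 2.10 at 3.0 mg/kg-day. This gap of 0.18 at 6.0 mg/kg-day was 0.03 without library 22, 0.05 without library 1, 0.42 without library 3 and 0.34 without library 24. By summed level the order was the other way round. The cytokinesis sum was 82.9 ± 9.88 CPM at 6.0 mg/kg-day and 9.16 ± 1.05 CPM in controls (SD, n = 4 each), a ratio of 9.05. The kinetochore, checkpoint and spindle sum was 188 ± 56.8 CPM at 6.0 mg/kg-day and 34.1 ± 3.97 CPM in controls, a ratio of 5.52. At 3.0 mg/kg-day the ratios to control were 5.03 for cytokinesis and 3.07 for kinetochore, checkpoint and spindle members. In controls the kinetochore, checkpoint and spindle sum was led by Mad2l1, Spc25, Cenpa and Spc24, genes with a high control level and a small change. So the direction of the contrast depends on whether each gene or each read counts the same.

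Within each mouse the cytokinesis sum in CPM, as a percentage of the kinetochore, checkpoint and spindle sum, was 27.8, 23.4, 26.7 and 30.1 in controls, and averaged 26.0 ± 1.84 at 0.03 and 31.2 ± 2.76 at 0.3 mg/kg-day. It was 37.4, 38.4, 51.2 and 45.9 at 3.0 and 46.5, 35.7, 52.2 and 48.4 at 6.0 mg/kg-day. Every mouse at the 2 highest doses lay above every control. Library 22 was the lowest of its group, although its cytokinesis sum of 97.3 CPM was the highest. Libraries 15, 19 and 23, all among the 5 that stood apart, had the highest percentage of their groups, while libraries 3 and 11, the others that stood apart, lay within their groups at 26.7 and 25.4. The plot of this balance shows both features.

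**Figure D3:**
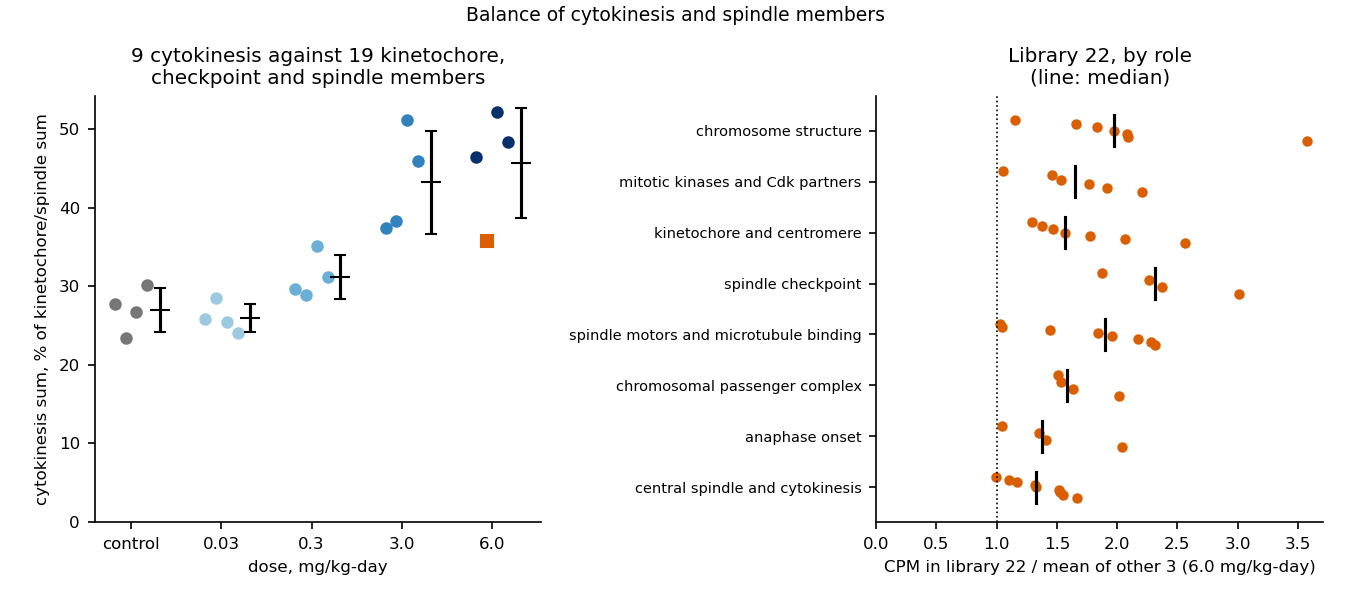
Left, summed CPM of the 9 cytokinesis members as a percentage of the summed CPM of the 19 kinetochore, checkpoint and spindle members in each mouse, by dose, with mean ± SD beside the points. Right, CPM of each member in library 22 divided by its mean in the other 3 mice at 6.0 mg/kg-day, by role, with the median as a line and a ratio of 1 dotted. The square marks library 22, at 35.7% against 46.5 to 52.2% in the other 3 mice of its group.

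Library 22 carried more of nearly every member than the other 3 mice at 6.0 mg/kg-day, but not in equal measure. The ratio of its level to the mean of the other 3 mice had a median of 1.64 over the 49 members and exceeded 2 for 14 of them. By role the median was 2.32 for the spindle checkpoint, 1.98 for chromosome structure and 1.90 for spindle motors. It was 1.65 for mitotic kinases, 1.59 for the passenger complex, 1.57 for the kinetochore, 1.38 for anaphase onset and 1.32 for the central spindle and cytokinesis, where 0 of 9 members exceeded 2. Top2a had the highest ratio, 3.58, followed by Bub1 with 3.01 and Ndc80 with 2.56. At the other end were Anln with 0.990, Ckap2 with 1.03, Cdc20 with 1.04, Hmmr with 1.04, Aurka with 1.05 and Ect2 with 1.10. The T and NK cell markers of the same library summed to 180 CPM, against 9.82, 19.3 and 5.84 CPM in libraries 21, 23 and 24 and 8.85 to 13.1 CPM in controls. Of these 15 markers, 9 were tested and 3 were called higher at 6.0 mg/kg-day, where 11.2% of all genes tested were. In library 22 the highest were Lck at 87.7 CPM, Thy1 at 30.9 CPM and Cd3g at 14.1 CPM. The lowest there were Cd8a and Nkg7, both at 0.252 CPM, Gzmb at 0.302 CPM and Ncr1 at 0.655 CPM. Neutrophil and monocyte markers summed to 29.4 CPM there, against 8.70 to 11.5 CPM in the other 3 mice and 3.83 to 5.81 CPM in controls. By this sum all 4 mice at 6.0 mg/kg-day lay above every control, but the markers differed. Of these 8 markers, 4 were tested and 1 was called higher at 6.0 mg/kg-day. S100a8 stood at 4.352, 14.97, 3.975 and 4.737 CPM in libraries 21 to 24, against 0.07452 to 0.6185 CPM in controls. S100a9 stood at 0.373, 7.158, 0.8065 and 0.1653 CPM, against 0.2981 to 0.8887 CPM in controls. Kupffer cell and macrophage markers summed to 566 CPM in library 22, against 410, 255 and 288 CPM in libraries 21, 23 and 24. Controls had 329 to 401 CPM. Csf1r went the other way, at 36.6 CPM in library 22 and 47.3 to 54.0 CPM in controls. Of these 11 markers, 0 were called higher and 1 lower at 6.0 mg/kg-day, where 11.2% of all genes were called higher and 11.2% lower. The part of all these cells in the member levels was not tested. The members summed to 383, 704, 392 and 423 CPM in libraries 21 to 24, against 75.8 to 89.9 CPM in controls. The plot of sums by mouse gives both series.

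**Figure D4:**
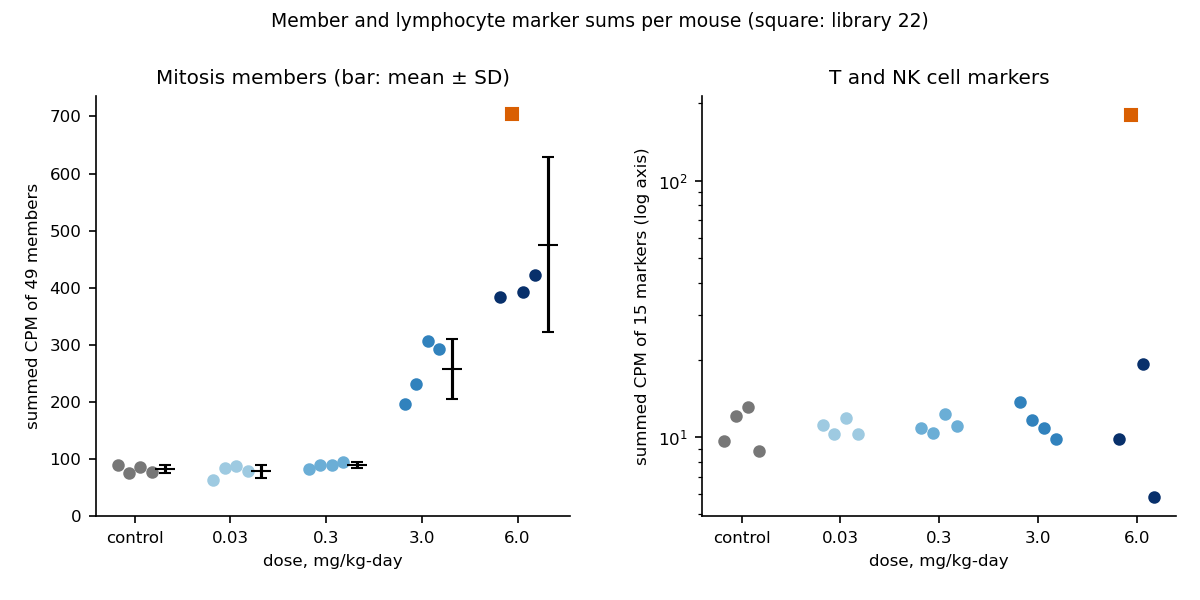
Summed CPM of the 49 members (left, linear axis with mean ± SD) and of 15 T and NK cell markers (right, log axis) in each mouse, by dose. The square is library 22, at 704 CPM for members and 180 CPM for markers. The other 3 mice at 6.0 mg/kg-day sit at 383 to 423 CPM for members.

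Members differed in how much they changed, and this went with their level in controls. The 10 members with the highest control mean, between 2.81 and 9.90 CPM, had a median log2 change of 1.30 at 6.0 mg/kg-day. They were Smc4, Spc25, Mad2l1, Cenpa, Smc2, Cks2, Spc24, Pttg1, Top2a and Aurka, and Top2a with 4.03 was the only one of them above 2.13. The other 39 members, at 0.123 to 2.45 CPM in controls, had a median of 3.32, and the smallest of their changes was 1.54, for Ncapd2. Across the 49 members the Spearman correlation of control level and log2 change was −0.60. This was a description only, because the control level enters both measures and the members share the same 20 libraries. In addition, 16 members passed the filter on low counts only because of groups at higher doses. Members so scarce in controls could be tested only if they were higher elsewhere. The part of this selection in the correlation and in the 2 medians was not tested.

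The promoters of the members were read because these genes moved together. Late cell cycle genes are known for a pair of promoter motifs, the CHR element, with the core TTTGAA or TTCGAA, and the CCAAT box, bound by NF-Y. RefSeq windows of 300 bases, 250 before to 50 after the annotated start (GRCm38.p6), were matched by symbol for 42 members, with 45 windows in all. TTTGAA or TTCGAA, on either strand, stood in 80.0% of the member windows, against 19.2% of all 32851 windows. CCAAT, on either strand, stood in 71.1% of member windows, against 37.4% of all windows. Both occurred in 66.7% of member windows, against 7.52% of all. The positions were also uneven. In the first 50 bases after the start 48.9% of member windows had a TTTGAA or TTCGAA match, against 2.46% of all windows, and in the last 50 bases before it 48.9% had CCAAT, against 9.03%. TTCGAA reads the same on both strands, and a CCAAT can share at most 1 base with the 6-letter motif. The last 160 bases before the start are shown 5′ to 3′ on the gene's strand for 4 members, chosen as the lowest in adjusted p at 6.0 mg/kg-day among members that had both motifs there and at most 30 bases of an annotated exon. Cks2, the member that was not called, is also shown. Capitals mark the 6-letter motif and CCAAT, each as written or as its reverse complement.
Cdc20 (chr4:118437344-118437503, minus strand): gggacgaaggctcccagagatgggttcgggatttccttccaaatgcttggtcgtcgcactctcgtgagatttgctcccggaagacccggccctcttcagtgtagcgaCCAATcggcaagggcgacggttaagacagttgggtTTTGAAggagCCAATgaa
Ckap2 (chr8:22185820-22185979, minus strand): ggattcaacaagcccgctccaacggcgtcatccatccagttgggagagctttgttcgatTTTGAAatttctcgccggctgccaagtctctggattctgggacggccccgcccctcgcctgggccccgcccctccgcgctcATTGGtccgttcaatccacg
Ckap2l (chr2:129297213-129297372, minus strand): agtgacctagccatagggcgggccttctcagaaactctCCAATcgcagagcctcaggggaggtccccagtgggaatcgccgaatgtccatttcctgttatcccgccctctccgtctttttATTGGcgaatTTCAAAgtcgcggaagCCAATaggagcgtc
Mki67 (chr7:135716380-135716539, minus strand): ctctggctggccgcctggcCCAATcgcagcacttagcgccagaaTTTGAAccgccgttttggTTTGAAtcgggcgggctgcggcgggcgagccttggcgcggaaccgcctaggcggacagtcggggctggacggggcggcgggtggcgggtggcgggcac
Cks2 (chr13:51645072-51645231, plus strand): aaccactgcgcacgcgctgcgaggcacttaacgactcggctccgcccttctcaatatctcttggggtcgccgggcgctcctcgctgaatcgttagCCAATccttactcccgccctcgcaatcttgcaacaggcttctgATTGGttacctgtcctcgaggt
Cks2, whose levels overlapped with controls at every dose, holds CCAAT letters and none of the 6-letter motif in this window. The 6-letter motif was found for 33 of the 42 matched members. Among the matched members 7 held neither motif, including Birc5, Nuf2 and Pttg1, which were called higher at both doses. A match in letters is a description of the window, and says nothing of what binds there.

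**Figure D5:**
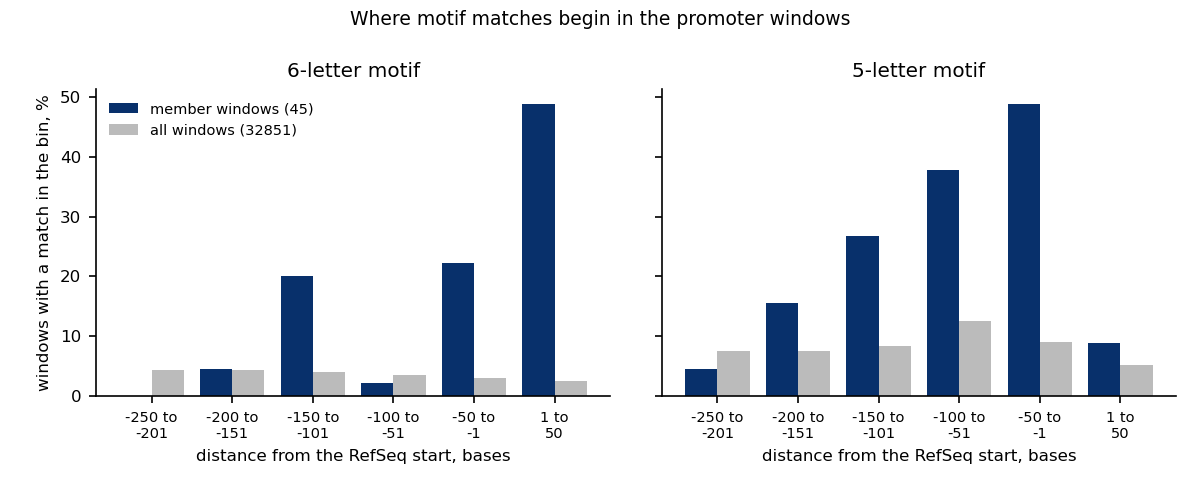
Share of RefSeq promoter windows in which a match begins, in bins of 50 bases from 250 before to 50 after the start, for the 45 windows of 42 members (dark) and all 32851 windows (grey). The left panel counts the 6-letter motif and the right panel CCAAT, each on both strands. The tallest dark bars, both at 48.9%, lie just after the start for the 6-letter motif and just before it for CCAAT.

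The 5 libraries that stood apart were compared with the others in a fit with dose and a term for these libraries. In them 5 of the 49 members were higher and 5 lower, where 24.9% of all genes were higher and 25.2% lower. Members were thus called less often than genes at large, but 31 of them had a control mean under 20 reads. The part of such scarce reads in this was not tested. The members called lower were Cks2, Cdkn3, Ube2c, Spc24 and Nuf2. All were among the 16 shortest members, of 692 to 2405 bases, whose median log2 difference was −0.14. Cdkn3 had −1.12 ± 0.33 (SE), Cks2 −0.98 ± 0.18, Nuf2 −0.83 ± 0.24 and Ube2c −0.78 ± 0.29. The higher ones were Ckap2, Ect2, Anln, Smc2 and Espl1, of which 4 lay among the 17 longest members, with a median of 0.24. A split by length was not made over all genes. Without these 5 libraries, 1 of each dose group, 48 members were again called higher at 6.0 mg/kg-day, and 39 at 3.0 mg/kg-day, against 43 with them. The calls of Spc25, Espl1, Kif20b and Kif23 at 3.0 mg/kg-day were lost. The cause of the split was not tested.

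Other genes of the same steps were read from 4 lists, beside a background at 6.0 mg/kg-day of 11.2% of all genes tested called higher and 11.2% lower. Of 37 other kinetochore and centromere genes tested, 24 were called higher and 0 lower at 6.0 mg/kg-day, with a median log2 change of 1.00. The clearest were Kntc1, which recruits dynein to kinetochores (3.42 ± 0.33), and Ska3, which holds kinetochores on microtubules (3.86 ± 0.39). Of 33 other spindle and centrosome genes, 21 were higher and 1 lower, with a median of 0.87. Dlgap5, a stabilizer of kinetochore fibres, rose by 4.90 ± 0.40 and Kifc1, a minus-end motor, by 3.13 ± 0.33, while Numa1, which anchors spindle poles, fell by 0.50 on the log2 scale (SE 0.17, edgeR adjusted p = 0.0433). Of 31 other anaphase and cohesin genes, 7 were higher and 0 lower, with a median of 0.16. Nek2, a centrosome kinase, averaged 28.8 ± 4.31 CPM at 6.0 mg/kg-day and 4.13 ± 0.943 CPM in controls (SD, n = 4 each), and Cdca5, the cohesin protector sororin, rose by 3.69 ± 0.37. Of 22 other cytokinesis genes, 4 were higher and 0 lower, with a median of 0.03. These 4 were Shcbp1, with 3.35 ± 0.27, Iqgap3, with 3.83 ± 0.44, Diaph3, with 2.94 ± 0.62, and Arhgap11a, with 1.85 ± 0.28. At 3.0 mg/kg-day the counts of higher genes in the 4 lists, in the same sequence, were 15, 13, 4 and 3, with 0 lower, where 3.18% of all genes were called higher.

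Some counts may hold reads of other genes. The exons of 12 members overlap those of another annotated gene, and for 7 members the overlap covers over 5% of the exon length. The largest is 29.3% of Kif20a, which lies beside Cdc23 on the opposite strand, followed by 22.8% of Ube2c with Tnnc2, 15.1% of Kif4 with Pdzd11, 13.4% of Ncapg with Lcorl and 11.1% of Prc1 with Rccd1. No source used here says whether counting used strand. Near-identical annotated copies exist for Cks2, Pbk, Mad2l1 and Mki67. Beside Pbk, with 86.8 reads per mouse at 6.0 mg/kg-day and 3.75 in controls, its copy Gm12387 had 14.2 and 1.25 reads. The copies of Mad2l1 and Mki67 held at most 6 and 18 reads in any library.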

How the data were processed

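The authors' deposited table holds expected counts per gene, 1 column per library, taken here as covering its 4 lanes, and 58.0% of its values were whole. The unit was read from the values, which are 0 or above, with totals that vary between columns. Partek and build GRCm38.p5 are named in the submitters' processing notes. Aligner, counter, annotation and strand setting: not given in the sources used here. The series speaks of individual mice as replicates. No pair of libraries of a group agreed within sampling noise (smallest chi-square per degree of freedom 8.87).

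Expected counts were rounded to whole numbers. Low rows were left out with filterByExpr on the dose groups, which kept 15197 of 22103. Libraries were scaled with TMM factors, and the quasi-likelihood test of edgeR 4.0.16 (R 4.3.3) was run in 1 fit with a mean per dose group and 15 residual degrees of freedom, with Benjamini-Hochberg adjustment over all genes tested. The biological coefficient of variation was 0.219. The SE is the absolute log2 fold change divided by the square root of F. The procedure was tested on simulated data. Alternatives were DESeq2 1.42.0, limma-voom (limma 3.58.1), RLE size factors, no filter, only the groups compared, a term for or removal of libraries 3, 11, 15, 19 and 23, and leaving out each mouse.

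The members, role groups, pathway lists and marker lists were chosen with earlier results of these data known, so no p is given for a list. Values per mouse are given for the 2 members of each role group with the highest mean CPM over all 20 libraries. They are also given for any member not called at 6.0 mg/kg-day. The members with the largest and smallest change are also named, as are those called between the 2 highest doses and the 2 genes with the smallest adjusted p of each pathway list. Coordinates, lengths and exon overlaps come from GENCODE M21 (GRCm38), and near-identical copies were found with BLAST (at least 95% identity over 200 bases). Promoter sequences are from RefSeq (GRCm38.p6), with windows for 42 of 49 members.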

Additional observations from a re-analysis of the deposited data

Results flagged for a closer look

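Single samples that lay far from the other 3 of their group, by Dixon's criterion for 4 values, were found in 13 of 140 groups of 4 mice over 28 measures. For independent measures with a normal spread, chance alone gives about 1 in 20. These measures share libraries and some are parts of others, so their share cannot be set against that rate. Of the 13, 6 belong to library 22 at 6.0 mg/kg-day. It had 105.6 CPM of Top2a, with 27.4 to 32.8 CPM in the other 3 mice, and 38.2 CPM of Smc4, with 19.0 to 19.9 CPM in the others. Its 49 members summed to 703.7 CPM, with 383 to 423 CPM in the others, and its kinetochore, checkpoint and spindle members to 272.7 CPM, with 152 to 165 CPM in the others. Its T and NK cell markers summed to 180.2 CPM, with 5.84 to 19.3 CPM in the others, and its neutrophil and monocyte markers to 29.4 CPM, with 8.70 to 11.5 CPM in the others.

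In the 0.03 mg/kg-day group library 11, 1 of the 5 libraries that stood apart, was low for Cks2, at 2.06 CPM with 3.66 to 3.91 CPM in the others. It was high for Ckap2, at 1.21 CPM with 0.569 to 0.605 CPM in the others. In the 0.3 mg/kg-day group library 13 was high for Incenp, at 1.70 CPM with 1.05 to 1.15 CPM in the others, and low for erythroid markers, at 374 CPM with 499.6 to 519 CPM in the others. Library 15 of the same group was low for stellate cell markers, at 342 CPM with 387 to 392 CPM in the others. Among controls library 1 was high for Kif11, at 2.42 CPM with 1.57 to 1.64 CPM in the others, and for Cdc20, at 0.494 CPM with 0.171 to 0.225 CPM in the others.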

How the results depend on the processing

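At 6.0 mg/kg-day 48 members were called higher in each alternative except without library 22, which gave 47. At 3.0 mg/kg-day the count lay between 39 and 44 over all alternatives, and at 0.03 and 0.3 mg/kg-day it was 0 in each. For 6.0 against 3.0 mg/kg-day, with 12 called, the count was 26 with DESeq2, 20 with limma-voom, 33 with a term for libraries 3, 11, 15, 19 and 23 and 33 without them, and 0 in a fit of the 2 groups alone; leaving out 1 mouse gave 0 to 25. The cause of these shifts was not tested. Leaving out 1 mouse, the log2 change of Cks2 lay between −0.00595 (without library 18, adjusted p = 0.999) and 0.27 (without library 19) at 3.0 mg/kg-day, and between −0.0621 (without library 22, adjusted p = 0.939) and 0.46 (without library 23) at 6.0 mg/kg-day. The median gap between the kinetochore, checkpoint and spindle set and the cytokinesis set kept its sign in each alternative where it was computed. It lay between 0.14 and 0.68 at 3.0 and between 0.03 and 0.42 at 6.0 mg/kg-day. These alternatives were RLE size factors, DESeq2, removal of libraries 3, 11, 15, 19 and 23, leaving out each mouse, and adding the passenger complex. The gap was not computed with limma-voom, without the filter, in a fit of the 2 groups alone, or with a term for those libraries. Fits that left 3 mice in a group pool the spread over all groups. No paired analysis was possible because the library numbers are unique to each mouse and no number is shared between groups. Counts of under 20 reads per control mouse limit how precisely the fold changes of 31 members are known.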
